A study of Rattus norvegicus with 12 samples.

Results

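The genes described here encode the glutathione, peroxiredoxin, thioredoxin and superoxide dismutase systems of the rat atrium. They were chosen by gene symbol, with no measured value in the rule: superoxide dismutases (Sod), catalase (Cat), glutathione peroxidases (Gpx), peroxiredoxins (Prdx), glutathione transferases (Gst, Mgst), thioredoxins and thioredoxin-like genes (Txn), the glutathione synthesis and recycling genes Gclc, Gclm, Gss and Gsr, sulfiredoxin (Srxn1), NADPH oxidases (Nox), heme oxygenases (Hmox), Nqo1 and the regulator Nfe2l2. They number 67 of the 14217 genes that the array annotation names by a single symbol. Of these, 61 had 1 probe set and 6 had several, and for the latter the brightest probe set by its mean over the 12 arrays was used. The symbols also take in members that are not antioxidant enzymes: Txnl4a and Txnl4b belong to the spliceosome, Txnip inhibits thioredoxin, and Hmox2-ps1 is a pseudogene. The median of all values on the array was 5.46, and 57 members had a group mean at or above it. The other 10, Gpx2, Gpx6, Gsta3, Gsta3l1, Gstm3, Gstm6l, Gstp3, Hmox2-ps1, Nox1 and Nox4, were dim in every group.

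The tissue came from male Sprague-Dawley rats weighing 225 to 275 g. An aorto-caval shunt, a surgical opening between the aorta and the vena cava that loads the heart with extra blood volume, or a sham operation had been performed 28 days before. There were 4 groups of 3 arrays, the right and the left atrium of sham rats and of shunt rats, and each array held a pool of 2 tissues. No genetic change is named in any group. Differences are on the log2 scale with the standard error (SE) of a limma fit to all 12 arrays, so that a log2 difference of 1 is a 2-fold difference. Adjusted p-values are over 31042 probe sets with a threshold of 0.05, and they measure only the spread between these pools.

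Superoxide dismutases turn superoxide into hydrogen peroxide, which catalase, glutathione peroxidases and peroxiredoxins then remove. The glutathione route is kept running by glutamate-cysteine ligase (Gclc, Gclm) and glutathione synthetase (Gss), which make glutathione, and by glutathione reductase (Gsr), which regenerates it. Peroxiredoxins are recharged by thioredoxin and thioredoxin reductase, with separate sets of these proteins in the cytosol and in mitochondria, which are abundant in heart muscle. NRF2, the product of Nfe2l2, binds antioxidant response elements near many of these genes.

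The core letters of that element, TGACNNNGC, were searched on both strands of the 250 bases before the start of each gene in RefSeq's promoter table (rat build GRCr8), which held 56 of the 67 members. They occurred in 12 of these 56 (21.4%) and in 3027 of the 27457 genes of the table (11.0%). The members with a match were Gclm, Gpx2, Gsta3, Gstm5, Gstm7, Gstp1, Gstz1, Hmox2, Sod2, Txndc11, Txndc5 and Txnrd1. The stretches of 30 bases below belong to some of these members. Txndc5 and Txnrd1, also discussed below, are not shown. The stretches are read 5′ to 3′ on the strand of the gene, with the matching letters in capitals (on the opposite strand they read GCNNNGTCA). They lie at chr2:198260320-198260349 (minus strand) for Gstm7, at chr2:198219646-198219675 and chr2:198219706-198219735 (plus strand) for Gstm5, at chr1:50050184-50050213 (minus strand) for Sod2, at chr10:11337688-11337717 (minus strand) for Hmox2, at chr6:112525365-112525394 (plus strand) for Gstz1 and at chr2:213031953-213031982 (plus strand) for Gclm.
Gstm7: acagtcgaggctagatTGACACAGCctgtc
Gstm5, distal: caaggccaagTGACCACGCggagggcgggt
Gstm5, proximal: tcagtcgcgtTGACCCCGCccacagcgtcc
Sod2: ggcgctgccgGCAGGGTCAgcgcctagctg
Hmox2: gtcttggaagGCAGTGTCAgcttggccagg
Gstz1: cttgtccgctGCCCCGTCAaggagtcgtaa
Gclm: tgcggtttctGCTTAGTCAttgtcttccag
These matches are letters in a window, and binding was not measured. The genes shown did not share a direction: in both sham and shunt rats Gstm7, Sod2 and Hmox2 were higher in the left atrium and Gstm5 in the right. Gclm was higher in the right in shunt rats only, a call that was not firm, and Gstz1 did not pass the left against right test in either. The table had no entry for Gpx8, Gsr, Gstm6l, Gstt1, Gstt2, Hmox1, Hmox2-ps1, Mgst2, Prdx6, Sod3 and Txnip.

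The atrial muscle markers Nppa, Myl7, Myl4 and Sln were among the brightest probe sets in both atria of sham rats, with group means from 13.54 to 14.41. Kcna5 of the same list was dimmer, at 6.27 in right and 6.30 in left atrium sham. The ventricular muscle marker Myl2 averaged 10.94 in right atrium sham, 12.37 in right atrium shunt, 5.26 in left atrium sham and 5.99 in left atrium shunt. List means of 6 such markers are given further on. The source labels name atrial tissue, although the tissue entry of the labels names ventricles besides atria. Whether ventricular tissue was in the samples was not tested. Left atrium shunt replicate 3 stood apart: limma gave it the lowest array weight, 0.37, against 0.86 to 1.38 for the other 11 arrays. Among the left atrium shunt arrays, the fat markers Ucp1, Plin1, Cidec, Adipoq and Lep read highest on it, and Cfd did not. Ucp1 read 7.56 there, beside 4.22 and 4.66. The neuronal markers Nefl, Nefm, Snap25 and Dbh were also highest on it, while Prph, Th and S100b were not. Each macrophage marker was lowest on it, Csf1r at 7.45 beside 8.15 and 8.24. The part of these cell types in its values was not tested. The difference between the 3′ and 5′ probe sets of beta-actin, which grows as RNA breaks down, was 1.58 to 1.82 in right atrium sham, 1.91 to 2.03 in right atrium shunt, 1.31 in all 3 left atrium sham arrays and 1.14 to 1.39 in left atrium shunt. For GAPDH the same difference was 0.32 to 0.40, 0.35 to 0.38, 0.20 to 0.21 and 0.18 to 0.28 in that order. Both controls moved with side, and in the right atrium beta-actin moved with the operation while the ranges of GAPDH overlapped. Their part in the results below was not tested.

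The first comparison was left against right atrium. In sham rats 27 of the 67 genes differed between the atria (40.3%), beside 36.1% of all probe sets, with 18 higher in the left and 9 higher in the right (20.1% and 16.1% of all probe sets). In shunt rats 30 genes differed (44.8%), beside 37.7% of all probe sets, with 20 higher in the left and 10 higher in the right (20.2% and 17.4% of all probe sets). The median difference over the 67 genes, left minus right, was 0.08 in sham and 0.06 in shunt, beside 0.04 over all named genes in each. Of all named genes, 1 probe set each, 37.6% differed in sham and 40.5% in shunt. The share of these genes that differed was thus close to that of the array as a whole. The groups of arrays did not overlap for 40 members in sham, where 50.4% of all probe sets did not, and for 42 in shunt, where 48.9% did not.

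The left-right differences of the sham rats and of the shunt rats came from separate arrays, although the fit gave both 1 estimate of the spread. Past the threshold in both, with the same sign, were 23 genes, which is 85.2% of the sham calls and 76.7% of the shunt calls. Over all probe sets the same shares were 66.6% and 63.8%. Higher in the left in both were Gstm2, Sod3, Gsr, Gstm7, Prdx6, Gstt1, Txndc15, Txnrd2, Hmox2, Sod2, Gstk1, Txn2, Mgst3, Gpx4 and Txndc17, and higher in the right in both were Txnl1, Gstm5, Txndc12, Gclc, Txndc16, Txndc9, Nqo1 and Nfe2l2. Gpx1, Gss, Gstt2 and Prdx3 passed in sham rats and not in shunt rats, and Gclm, Gpx3, Gstm1, Gstm4, Gstm6l, Prdx2 and Txndc5 passed in shunt rats and not in sham rats. None of these 11 passed the test of the difference itself, the interaction described further on, and 33 genes passed in neither.

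**Figure D1:**
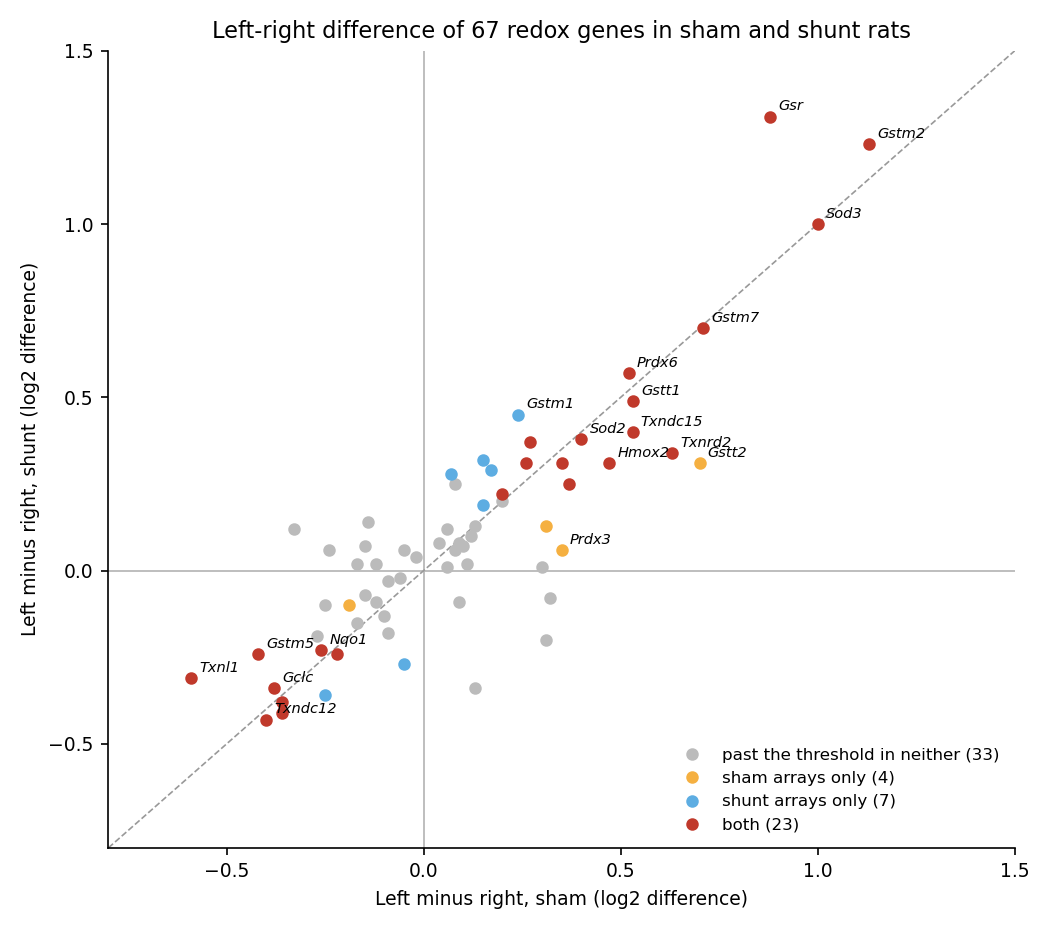
Left minus right log2 difference of each of the 67 genes in sham rats (x axis) and in shunt rats (y axis), with the dashed line marking equal differences and colours marking where a gene passed the threshold (limma, adjusted p of 0.05). The 23 genes past it in both lie in the upper right and lower left, with Gstm2 (1.13 and 1.23), Sod3 (1.0 in both) and Gsr (0.88 and 1.31) farthest out, and 33 genes past it in neither lie near the centre.

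Among the transferases, which join glutathione to reactive compounds, the largest differences lay in the mu class. Its members Gstm5, Gstm6l, Gstm7, Gstm3, Gstm2, Gstm1 and Gstm4 stand in that order on chromosome 2. Gstm2 read 8.86, 8.81 and 9.03 in right atrium sham, 8.83, 8.76 and 8.63 in right atrium shunt, 10.11, 9.99 and 9.99 in left atrium sham, and 9.82, 9.96 and 10.11 in left atrium shunt. All 6 left arrays lay above all 6 right arrays. The difference was 1.13 ± 0.09 in sham (SE, limma adjusted p = 3.34e-06, 2.19-fold) and 1.23 ± 0.09 in shunt (adjusted p = 3.19e-06, 2.34-fold).

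Gstm7 read 7.42, 7.20 and 7.45 in right atrium sham, 7.15, 7.02 and 7.04 in right atrium shunt, 8.11, 7.97 and 8.14 in left atrium sham, and 7.76, 7.60 and 7.94 in left atrium shunt. The left arrays were again all higher, by 0.71 ± 0.10 in sham (limma adjusted p = 0.000139) and 0.70 ± 0.10 in shunt (adjusted p = 0.000219). Gstm5, at the other end of the row from Gstm4, went the opposite way. It read 7.29, 7.48 and 7.33 in right atrium sham against 6.82, 7.01 and 7.02 in left atrium sham, a difference of -0.42 ± 0.09 (adjusted p = 0.00282), and in shunt the difference was -0.24 ± 0.09 (adjusted p = 0.047). The shunt call for Gstm5 was lost in 8 of the 12 fits that left out an array: without replicates 1 or 3 of right atrium sham, 1 or 2 of right atrium shunt, 2 or 3 of left atrium sham, or 2 or 3 of left atrium shunt, with adjusted p from 0.052 to 0.139.

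Gstm1 read 8.52, 8.50 and 8.55 in right atrium sham, 8.19, 8.26 and 8.15 in right atrium shunt, 8.84, 8.78 and 8.68 in left atrium sham, and 8.41, 8.63 and 8.93 in left atrium shunt. The left groups lay above the right groups of the same operation without overlap, but only the shunt difference of 0.45 ± 0.11 passed (limma adjusted p = 0.00567), the sham difference being 0.24 ± 0.11 (adjusted p = 0.0969). Gstm4 (0.32) and Gstm6l (0.28) were higher in the left atrium of shunt rats, and neither kept its call without left atrium shunt replicate 3 (adjusted p = 0.149 and 0.0764). Gstm6l was dim in every group, at 3.40 in right and 3.69 in left atrium shunt. Gstm4 was also lost without right atrium shunt replicates 1, 2 or 3, left atrium shunt replicate 2, right atrium sham replicate 2 or left atrium sham replicates 1 or 3 (0.0522 to 0.111), and Gstm6l without left atrium shunt replicate 2 or right atrium shunt replicates 2 or 3 (0.0672 to 0.123). Gstm3 did not pass in either. The mu-class genes are close copies of each other, and whether their probes also bind the transcripts of neighbours was not tested.

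Of the theta class, Gstt2 read 6.14, 5.79 and 6.11 in right atrium sham and 6.67, 6.78 and 6.71 in left atrium sham, a difference of 0.70 ± 0.12 (limma adjusted p = 0.000505). In shunt rats it read 5.89, 6.15 and 6.0 against 6.55, 6.26 and 6.16, the groups did not overlap, and the difference of 0.31 ± 0.12 missed the threshold (adjusted p = 0.0533). A dimmer probe set of Gstt2 differed by 0.14 in sham and 0.29 in shunt and did not pass. Gstt1 was higher in the left in both, by 0.53 ± 0.10 (adjusted p = 0.00149) and 0.49 ± 0.10 (adjusted p = 0.00261): it read 4.96, 5.30 and 5.29 in right atrium sham, 5.14, 5.27 and 5.23 in right atrium shunt, 5.57, 5.84 and 5.71 in left atrium sham, and 5.64, 5.80 and 5.67 in left atrium shunt. The right arrays lay below the median of the array, 5.46, where levels are dim. Gstk1, the transferase of mitochondria and peroxisomes, was higher in the left by 0.37 and 0.25, and the membrane transferase Mgst3 by 0.27 and 0.37. The remaining 11 of the 20 soluble transferases, the alpha, omega, pi and zeta classes with Gstt3 and Gstm3, and the membrane transferases Mgst1 and Mgst2 passed in neither. Of the soluble transferases 5 were higher in the left (25.0%) and 1 in the right (5.0%) in sham rats, beside 20.1% and 16.1% of all probe sets. In shunt rats 7 (35.0%) and 1 (5.0%) were, beside 20.2% and 17.4%.

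Of the dismutases, Sod3, the form secreted to the cell surface and matrix, read 8.74, 8.74 and 8.93 in right atrium sham, 9.06, 8.89 and 8.92 in right atrium shunt, 9.79, 9.75 and 9.85 in left atrium sham, and 10.04, 10.10 and 9.74 in left atrium shunt. Its difference was 1.0 ± 0.10 in both, a 2.0-fold higher level in the left atrium (limma adjusted p = 1.16e-05 in sham and 1.93e-05 in shunt). Sod2, the mitochondrial dismutase, read 10.26, 10.18 and 10.26 in right atrium sham and 10.64, 10.60 and 10.65 in left atrium sham, and the shunt groups lay as far apart. It was higher in the left by 0.40 ± 0.06 (adjusted p = 0.000325) and 0.38 ± 0.06 (adjusted p = 0.000515). Sod1, the cytosolic dismutase, differed by 0.13 in both, with 95% confidence intervals from -0.02 to 0.27 and from -0.01 to 0.27, and did not pass. Catalase differed by -0.09 (from -0.23 to 0.06) and -0.03 (from -0.18 to 0.12).

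In glutathione recycling, Gsr read 5.04, 5.43 and 5.14 in right atrium sham, 5.28, 5.22 and 5.09 in right atrium shunt, 5.91, 6.28 and 6.06 in left atrium sham, and 6.60, 6.46 and 6.47 in left atrium shunt. Every left array lay above every right array, and the left shunt arrays were the highest of all. The right arrays all lay below the median of the array, 5.46, so these folds set the left atrium against a dim level. The difference was 0.88 ± 0.11 in sham (limma adjusted p = 8.87e-05, 1.84-fold) and 1.31 ± 0.11 in shunt (adjusted p = 8.97e-06, 2.49-fold). The genes of glutathione synthesis did not follow Gsr. Gclc, the catalytic subunit of the rate-limiting ligase, was higher in the right atrium: it read 6.91, 6.95 and 6.97 in right atrium sham against 6.62, 6.44 and 6.62 in left atrium sham, and differed by -0.38 ± 0.09 (adjusted p = 0.00627) and by -0.34 ± 0.09 in shunt (adjusted p = 0.013). A dimmer probe set of Gclc differed by -0.14 and 0.13 and did not pass, and with the mean of its probe sets the shunt difference of -0.11 was not past the threshold (adjusted p = 0.375). Gclm, the modifier subunit, differed by -0.05 in sham and by -0.27 in shunt (adjusted p = 0.0428), a call lost without 7 of the 12 arrays, namely any of right atrium shunt, replicates 2 or 3 of left atrium shunt, replicate 2 of right atrium sham or replicate 3 of left atrium sham (adjusted p from 0.0518 to 0.156). Gss was higher in the left in sham by 0.31 (adjusted p = 0.00426) and differed by 0.13 in shunt (adjusted p = 0.159).

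Of the 7 glutathione peroxidases, Gpx4, which clears lipid peroxides in membranes, was higher in the left atrium by 0.26 ± 0.07 in sham (limma adjusted p = 0.0177) and 0.31 ± 0.07 in shunt (adjusted p = 0.00627), and its other probe set gave 0.28 and 0.27. The sham call of Gpx4 was lost without left atrium sham replicate 3 (adjusted p = 0.0501) or right atrium sham replicate 1 (0.0753). Gpx1, the cytosolic and mitochondrial peroxidase, read 13.37, 13.34 and 13.36 in right atrium sham and 13.11, 13.19 and 13.20 in left atrium sham, close to the highest value on the array, 14.43. Its difference was -0.19 ± 0.06 (adjusted p = 0.032), and without any 1 of the 6 sham arrays it was not past the threshold (0.0511 to 0.106). Gpx3, the secreted form, differed by 0.17 in sham (adjusted p = 0.15) and was higher in the left by 0.29 in shunt (adjusted p = 0.0229), a call lost without left atrium shunt replicates 1 or 2 or right atrium shunt replicates 2 or 3 (0.0645 to 0.0785).

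Of the peroxiredoxins, Prdx6, which also reduces oxidised phospholipids and takes its electrons from glutathione, read 10.53, 10.66 and 10.68 in right atrium sham, 10.68, 10.76 and 10.69 in right atrium shunt, 11.17, 11.15 and 11.10 in left atrium sham, and 11.23, 11.38 and 11.23 in left atrium shunt. The left groups were higher by 0.52 ± 0.07 (limma adjusted p = 0.000151) and 0.57 ± 0.07 (adjusted p = 0.000105). Prdx3, the mitochondrial peroxiredoxin, read 10.88, 10.92 and 10.90 in right atrium sham against 11.26, 11.24 and 11.26 in left atrium sham, and 10.96, 11.13 and 11.15 in right atrium shunt against 11.08, 11.14 and 11.19 in left atrium shunt. The sham arrays were clearly apart, at 0.35 ± 0.07 (adjusted p = 0.00179), while the shunt arrays overlapped, at 0.06 ± 0.07 (adjusted p = 0.552). Prdx2 was higher in the left in shunt by 0.19 (adjusted p = 0.04), a call lost without any 1 of the 6 shunt arrays or without right or left atrium sham replicate 3 (0.0503 to 0.131), and it differed by 0.15 in sham (adjusted p = 0.0974). Prdx4 and Prdx5 passed in neither. A probe set that names both Prdx1 and Prdx1l1 is not counted among the members, and it differed by 0.20 in sham (adjusted p = 0.0693) and 0.26 in shunt (adjusted p = 0.021). Sulfiredoxin, which repairs overoxidised peroxiredoxins, differed by 0.32 in sham and -0.08 in shunt and passed in neither, but 1 of its other probe sets passed in sham (0.29) and another in shunt (0.64).

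The 16 thioredoxin genes were split. In sham rats 4 were higher on each side (25.0% each), beside 20.1% of all probe sets in the left and 16.1% in the right. In shunt rats 4 were higher in the left (25.0%) and 5 in the right (31.2%), beside 20.2% and 17.4%. Txnrd2, the mitochondrial thioredoxin reductase, read 6.92, 7.06 and 7.18 in right atrium sham, 7.09, 7.18 and 7.08 in right atrium shunt, 7.59, 7.77 and 7.70 in left atrium sham, and 7.37, 7.43 and 7.59 in left atrium shunt. It was higher in the left without overlap, by 0.63 ± 0.09 (limma adjusted p = 0.000149) and 0.34 ± 0.09 (adjusted p = 0.00885). Txn2, the mitochondrial thioredoxin, was higher in the left by 0.35 (adjusted p = 0.0152) and 0.31 (adjusted p = 0.0299). Its sham call was lost without right atrium sham replicates 1 or 2 (0.0605 and 0.0533) and its shunt call without left atrium shunt replicates 2 or 3 or right atrium shunt replicates 1 or 3 (0.0647 to 0.114). The cytosolic pair did not pass: Txn1 differed by -0.10 and -0.13, and Txnrd1 by 0.08 and 0.06. A dimmer probe set of Txnrd1, however, was higher in the left by 0.81 ± 0.10 (adjusted p = 8.26e-05) and 0.54 ± 0.10 (adjusted p = 0.00161), so the result for Txnrd1 depends on the probe set. Txnip, the inhibitor of thioredoxin, differed by 0.31 in sham (adjusted p = 0.084) and -0.20 in shunt (adjusted p = 0.242).

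Among the thioredoxin-like proteins, Txndc12, a protein of the endoplasmic reticulum, was higher in the right atrium. It read 9.50, 9.48 and 9.48 in right atrium sham, 9.61, 9.69 and 9.61 in right atrium shunt, 9.17, 8.96 and 9.13 in left atrium sham, and 9.21, 9.27 and 9.15 in left atrium shunt. The groups were apart by -0.40 ± 0.07 (limma adjusted p = 0.000991) and -0.43 ± 0.07 (adjusted p = 0.000744). Txndc16 (-0.36 and -0.38) and Txndc9 (-0.36 and -0.41) were also lower in the left, and Txndc15 (0.53 and 0.40) and Txndc17 (0.20 and 0.22) were higher. Txndc15 read 8.66, 8.96 and 9.04 in right atrium sham against 9.39, 9.40 and 9.45 in left atrium sham, and 8.92, 8.87 and 8.73 in right atrium shunt against 9.07, 9.18 and 9.46 in left atrium shunt, without overlap in either. Txndc5, an endoplasmic reticulum isomerase, was lower in the left in shunt at -0.36 (adjusted p = 0.0222), a call lost without left atrium shunt replicate 3 or right atrium shunt replicates 2 or 3 (0.0567 to 0.0785). Some of these calls hung on single arrays too. In sham rats Txndc17 was lost without any 1 of the 6 sham arrays (0.054 to 0.0857), Txndc9 without any of them but left atrium sham replicate 3 (0.0612 to 0.144), and Txndc16 without right or left atrium sham replicate 1 (0.0671 and 0.0511). In shunt rats Txndc17 was lost without left atrium shunt replicates 1 or 2 or right atrium shunt replicates 2 or 3 (0.0501 to 0.0732), Txndc15 without replicate 3 of either shunt group (0.0552 and 0.0621), and Txndc9 without left atrium shunt replicate 3 (0.0503) or right atrium shunt replicate 2 (0.0842).

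Txnl1, a thioredoxin-like protein bound to the proteasome, read 11.09, 11.18 and 11.09 in right atrium sham, 10.94, 10.97 and 11.07 in right atrium shunt, 10.57, 10.52 and 10.49 in left atrium sham, and 10.60, 10.61 and 10.85 in left atrium shunt. On this probe set it was lower in the left without overlap, by -0.59 ± 0.08 (limma adjusted p = 0.000119) and -0.31 ± 0.08 (adjusted p = 0.0101). The other 3 probe sets of Txnl1 did not pass and disagreed with each other, at 0.14, -0.85 and 0.14 in sham and 0.04, -0.06 and 0.39 in shunt. With the mean of its 4 probe sets neither difference was past the threshold, at -0.29 in sham (adjusted p = 0.143) and 0.02 in shunt (adjusted p = 0.942).

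**Figure D2:**
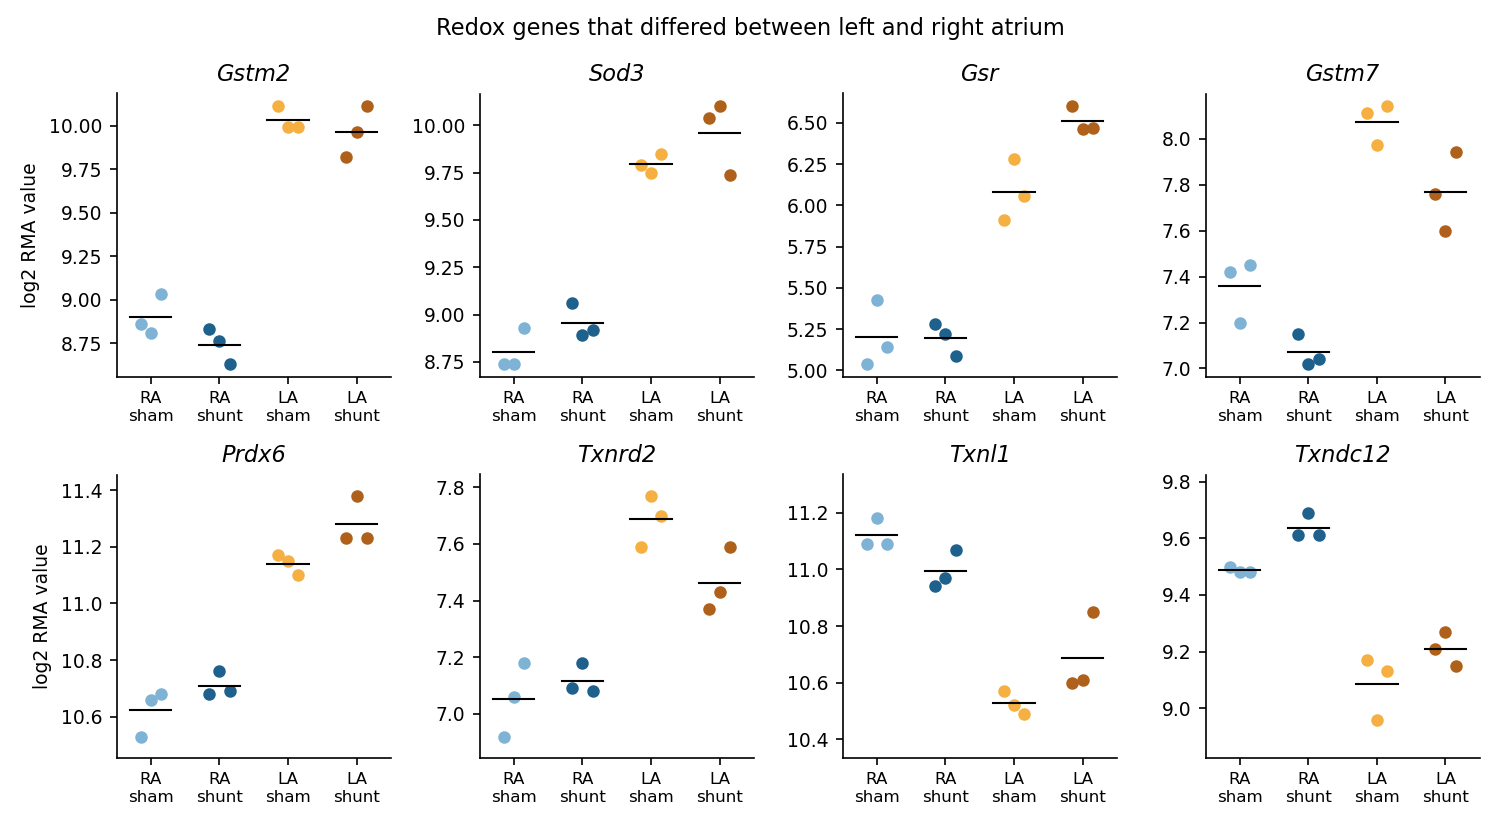
Log2 RMA value of 8 genes on each of the 12 arrays, by group (RA, right atrium; LA, left atrium), with a line at each group's mean; the y axis of each panel has its own range and does not start at 0. In Gstm2, Sod3, Gsr, Gstm7, Prdx6 and Txnrd2 every left array lies above every right array, and in Txnl1 and Txndc12 every left array lies below.

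Nfe2l2 itself read 9.27, 9.30 and 9.25 in right atrium sham, 9.43, 9.36 and 9.38 in right atrium shunt, 9.04, 9.11 and 9.01 in left atrium sham, and 9.24, 9.11 and 9.09 in left atrium shunt. It was lower in the left atrium by -0.22 ± 0.07 in sham (limma adjusted p = 0.0221) and -0.24 ± 0.07 in shunt (adjusted p = 0.0127). Nqo1, a quinone reductase and a standard NRF2 target, was lower in the left as well, at -0.26 (adjusted p = 0.016) and -0.23 (adjusted p = 0.0283). Both sham calls were lost on leaving out some arrays: Nfe2l2 without left atrium sham replicates 1 or 3 or right atrium sham replicates 1 or 2 (0.0506 to 0.072), and Nqo1 without left atrium sham replicates 2 or 3 or right atrium sham replicate 3 (0.0506 to 0.0608). The shunt call of Nqo1 was lost without left atrium shunt replicate 3 or right atrium shunt replicates 2 or 3 (0.0603 to 0.12). Hmox2, the constitutive heme oxygenase, was higher in the left by 0.47 (adjusted p = 0.00128) and 0.31 (adjusted p = 0.0144, and 0.0637 without right atrium shunt replicate 2). The inducible Hmox1 differed by 0.13 (from -0.27 to 0.53) and -0.34 (from -0.74 to 0.06) and passed in neither. Nox4, an oxidase that makes hydrogen peroxide, was dim in all groups and differed by 0.04 and 0.08, and Nox1 did not pass.

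Markers of several cell types moved with side in the same arrays. Over all marker lists, 29 of 74 markers measured differed in sham (39.2%) and 37 in shunt (50.0%). Of all probe sets 36.1% and 37.7% differed, and of all named genes 37.6% and 40.5%. Of 6 ventricular muscle markers, 4 were lower in the left atrium of sham rats, Myl2 by the most (-5.69), and 1 higher, with list means of 7.56 to 7.70 in right atrium sham, 8.09 to 9.08 in right atrium shunt, 5.93 to 6.24 in left atrium sham and 6.48 to 6.86 in left atrium shunt. Of 6 smooth muscle and pericyte markers, 4 were higher in the left in sham and 4 in shunt (list means 7.16 to 7.38 and 7.56 to 7.68 in right sham and shunt, 7.66 to 7.79 and 7.76 to 8.04 in left). Of 6 mesothelial markers, 4 were higher in the left in sham, and 2 were higher and 1 lower in shunt (6.50 to 6.87 and 6.50 to 6.81 in right, 7.20 to 7.49 and 6.75 to 7.29 in left). Of 11 macrophage markers, 3 were lower in the left in sham and 6 in shunt (7.37 to 7.46 and 7.84 to 7.89 in right, 7.13 to 7.28 and 7.04 to 7.61 in left). Of 7 endothelial markers measured, 4 were higher and 1 lower in the left in sham, and 2 were higher and 2 lower in shunt (8.66 to 8.72 and 8.81 to 8.94 in right, 8.83 to 8.87 and 8.83 to 8.93 in left). Of 8 fibroblast markers, 3 were higher and 1 lower in sham, and 2 and 2 in shunt (10.99 to 11.06 and 11.12 to 11.13 in right, 11.20 to 11.23 and 10.98 to 11.31 in left). The part of these cell types in the left-right differences above was not tested. In such tissue, fewer cells of a type and less RNA per cell cannot be told apart.

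The second comparison was shunt against sham in each atrium. In the right atrium none of the 67 genes passed the threshold in limma, beside 2.97% of all probe sets. At an unadjusted p under 0.05 there were 14 (20.9%), where 19.7% of all probe sets and 22.4% of all named genes were. The smallest adjusted p was 0.114. The differences, shunt minus sham, ran from -0.32 to 0.45 with a median of 0.00, beside a median of 0.02 over all named genes. All 67 confidence intervals (95%) lay within a 2-fold change, and 63 lay within 1.5-fold. The shunt and sham arrays did not overlap for 30 genes, where 28.4% of all probe sets did not.

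The widest right atrial differences were those of Hmox1 and Srxn1, both inducible by oxidants. Hmox1, which degrades heme, read 5.69, 5.87 and 5.83 in sham and 6.34, 6.32 and 6.08 in shunt: the groups did not overlap, and the difference was 0.45 ± 0.18 (limma adjusted p = 0.203). In a fit of the right atrium alone Hmox1 passed (adjusted p = 0.0311), and it passed without left atrium shunt replicate 3 (adjusted p = 0.037). Srxn1 read 6.22, 5.67 and 6.11 in sham and 6.43, 6.43 and 6.48 in shunt, at 0.45 ± 0.19 (adjusted p = 0.221), while its other 2 probe sets were at 0.17 and -0.06. Gstm1, given by array above, was at -0.32 ± 0.11 (adjusted p = 0.123). It too passed in the fit of the right atrium alone and without left atrium shunt replicate 3, which raised the count of members past the threshold from 0 to 2 in each of these fits. Txnip read 10.79, 10.76 and 10.82 in sham and 11.05, 11.22 and 10.98 in shunt, at 0.30 ± 0.13 (adjusted p = 0.234).

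Other well-known genes of these systems did not pass in the right atrium either. Sod1 was at -0.09, Sod2 at 0.13, Sod3 at 0.16 and catalase at -0.12. Gpx1 was at 0.02, Gpx3 at 0.11 and Gpx4 at 0.04, with intervals from -0.12 to 0.16, from -0.08 to 0.30 and from -0.12 to 0.20. Prdx2 was at 0.01, Prdx3 at 0.18 and Prdx6 at 0.09, and Txn1, Txn2, Txnrd1 and Txnrd2 were at -0.02, -0.31, 0.01 and 0.06. Gclc was at 0.20, Gclm at 0.13, Gsr at -0.01, Nfe2l2 at 0.12, Nqo1 at 0.22 and Nox4 at 0.19.

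In the left atrium none of the 67 genes passed in limma either, beside 0.751% of all probe sets. At an unadjusted p under 0.05 there were again 14 (20.9%), where 13.6% of all probe sets and 14.7% of all named genes were. The smallest adjusted p was 0.104. The differences ran from -0.39 to 0.47 with a median of 0.02. All 67 intervals lay within a 2-fold change and 61 within 1.5-fold. The arrays did not overlap for 21 genes, where 16.9% of all probe sets did not. Without left atrium shunt replicate 3 there were 3 calls, Gclc, Gsta1 and Mgst2, all higher in shunt.

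Gsr was at 0.43 ± 0.11 (limma adjusted p = 0.116) in the left atrium, its 3 shunt arrays lying above the 3 sham arrays. Gstz1, which also acts in tyrosine breakdown, was at 0.47 ± 0.13 (adjusted p = 0.116), Mgst2 at 0.38 ± 0.10 (adjusted p = 0.121), Txn2 at -0.36 ± 0.10 (adjusted p = 0.131) and Gstk1 at -0.26 ± 0.07 (adjusted p = 0.104). Hmox1 and Srxn1 were at -0.02 and 0.04 here, and the shunt arrays of both spread widely: Hmox1 read 6.23, 6.11 and 5.38, and Srxn1 6.56, 6.66 and 5.87. The low array in both was left atrium shunt replicate 3. Sod1, Sod2, Sod3 and catalase were at -0.09, 0.12, 0.16 and -0.07. Gpx1, Gpx3 and Gpx4 were at 0.11, 0.23 and 0.10. Prdx2, Prdx3 and Prdx6 were at 0.05, -0.11 and 0.14. Txn1, Txnrd1, Txnrd2 and Txnip were at -0.06, -0.01, -0.23 and -0.22. Gclc was at 0.24, Gclm at -0.09, Nfe2l2 at 0.09, Nqo1 at 0.25 and Nox4 at 0.23, and none of these passed.

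**Figure D3:**
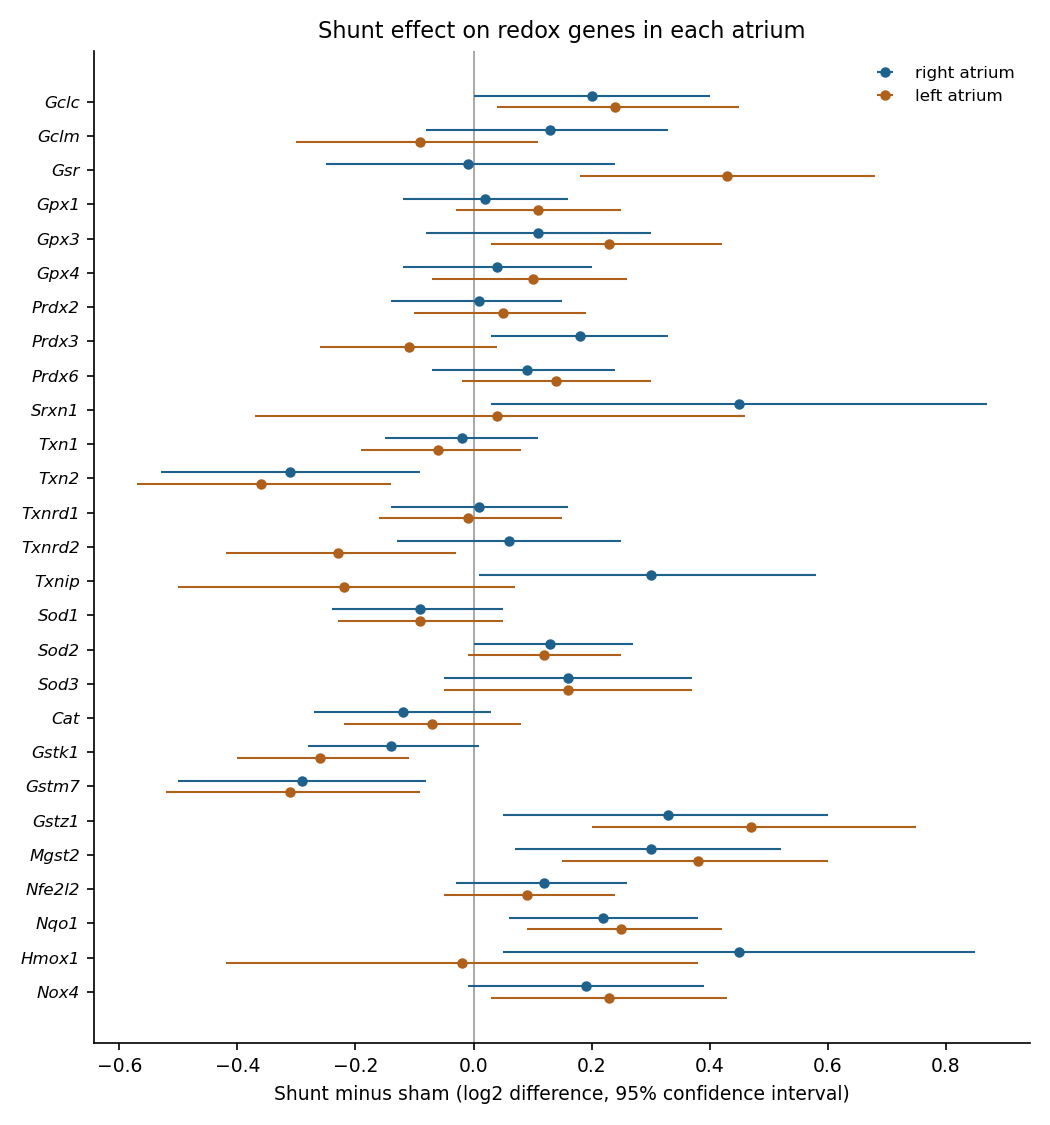
Shunt minus sham log2 difference of 27 genes in the right (blue) and left (orange) atrium; points are limma estimates from 3 arrays a group and bars are 95% confidence intervals, not adjusted for the number of genes. No gene passed the adjusted threshold in either atrium. Txn2, Gstm7, Gstk1, Gstz1, Mgst2 and Nqo1 lie on the same side of 0 in both. They passed on the average of both atria, which favours genes of like sign. Others shown lie on the same side in both as well, among them Gclc, Sod1, Sod2, Sod3, Cat, Nfe2l2 and Nox4.

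Averaged over both atria, which uses all 12 arrays for 1 effect of the shunt, 6 of the 67 genes passed (8.96%), beside 3.86% of all probe sets: 3 rose (2.31% of all probe sets) and 3 fell (1.55%). Of all named genes, 1 probe set each, 5.25% passed, 3.4% rising and 1.86% falling. In all 23 members had an unadjusted p under 0.05 (34.3%), where 17.9% of all probe sets and 21.2% of all named genes did. The median over all 67 was 0.01. The 6 changes were small, each under 1.5-fold. The fit took left and right arrays of the same operation as independent. Their same-numbered pairs were weakly correlated, at 0.079 to 0.148 in sham and 0.095 to 0.143 in shunt. Whether such pairs share rats is not stated, and no fit with them as blocks within each operation was run for this effect.

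Gstz1 read 7.03, 6.91 and 6.90 in right sham, 7.27, 7.39 and 7.16 in right shunt, 6.96, 6.67 and 6.48 in left sham, and 7.09, 7.02 and 7.40 in left shunt, and rose by 0.40 ± 0.09 (limma adjusted p = 0.0278). Mgst2, a membrane transferase that can also make leukotriene C4, read 6.69, 6.75 and 6.72 in right sham, 7.13, 7.09 and 6.83 in right shunt, 6.67, 6.54 and 6.48 in left sham, and 7.01, 7.08 and 6.74 in left shunt, and rose by 0.34 ± 0.07 (adjusted p = 0.0237). Nqo1 read 7.96, 7.98 and 8.07 in right sham, 8.13, 8.33 and 8.21 in right shunt, 7.81, 7.69 and 7.71 in left sham, and 8.02, 8.04 and 7.91 in left shunt, and rose by 0.24 ± 0.05 (adjusted p = 0.0299). For these 3 genes every shunt array lay above every sham array of the same atrium.

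Txn2 read 9.79, 9.83 and 10.02 in right sham, 9.58, 9.69 and 9.44 in right shunt, 10.24, 10.22 and 10.24 in left sham, and 9.67, 9.95 and 10.01 in left shunt, and fell by 0.33 ± 0.07 (limma adjusted p = 0.0222). Gstm7, whose values are given above, fell by 0.30 ± 0.07 (adjusted p = 0.0335). Gstk1 read 9.49, 9.47 and 9.55 in right sham, 9.38, 9.39 and 9.33 in right shunt, 9.94, 9.83 and 9.86 in left sham, and 9.56, 9.63 and 9.67 in left shunt, and fell by 0.20 ± 0.05 (adjusted p = 0.0354). Here every shunt array lay below every sham array of the same atrium. Txn2, Gstm7 and Gstk1 were also higher in the left atrium, so in these 3 genes side and shunt differed in opposite directions, while Nqo1 was higher in the right and rose with the shunt.

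These 6 calls were not firm. Txn2 was past the threshold in 8 of the 12 fits that left out an array, Gstz1 in 6, Nqo1 in 4, Gstm7 and Mgst2 in 3, and Gstk1 in 1. The count of members past it was 0 without left atrium sham replicate 3, 1 without right atrium sham replicate 3 or right atrium shunt replicates 1 or 2, 2 without right atrium sham replicate 2, right atrium shunt replicate 3, left atrium sham replicate 2 or left atrium shunt replicate 1, 3 without right atrium sham replicate 1 or left atrium shunt replicate 2, and 4 without left atrium sham replicate 1. It was 11 without left atrium shunt replicate 3. The signs of all 6 were the same in all of these fits.

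**Figure D4:**
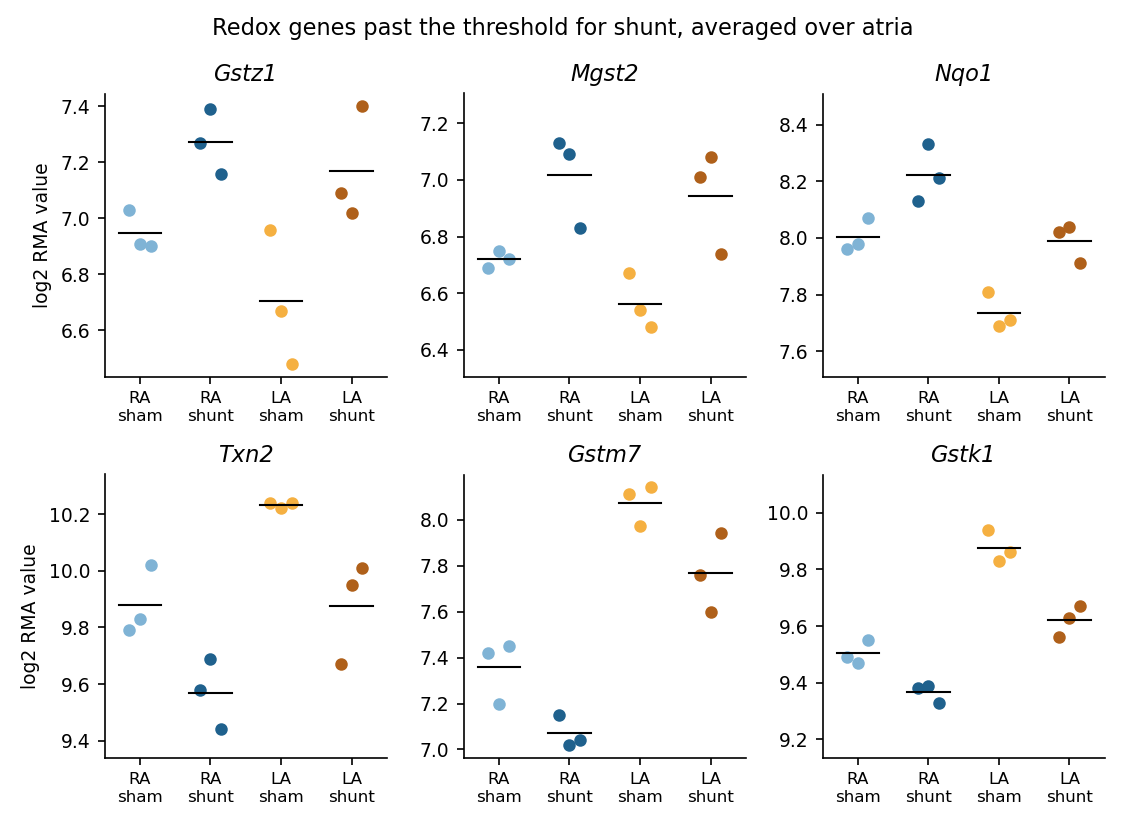
Log2 RMA value on each of the 12 arrays, by group (RA, right atrium; LA, left atrium), of the 6 genes past the threshold for shunt minus sham averaged over both atria, with a line at each group's mean; y axes have their own ranges and do not start at 0. Gstz1, Mgst2 and Nqo1 are higher in shunt and Txn2, Gstm7 and Gstk1 lower, in each atrium without overlap.

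Cell type markers moved with the operation beside these genes. Averaged over both atria, 9 of 74 markers measured rose (12.2%) and 2 fell (2.7%). Of all probe sets 2.31% rose and 1.55% fell, and of all named genes 3.4% and 1.86%. The markers that rose were 4 of 6 ventricular muscle and 2 of 11 macrophage markers, with 1 each of the smooth muscle, endothelial and neuronal lists. The markers that fell were 1 atrial muscle and 1 mesothelial marker. In the right atrium 5 ventricular muscle and 3 macrophage markers rose, and in the left 1 and none. Over all lists 14.9% of markers rose in the right atrium, beside 1.9% of all probe sets and 2.83% of all named genes. In the left 2.7% rose, beside 0.283% and 0.373%. The lists were chosen with earlier results of these data known, so these shares were not a test of them. The means of the ventricular muscle and macrophage lists are given above, and their part in the averaged changes was not tested.

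Whether the shunt acted differently in the atria was tested by the interaction, the left atrial effect minus the right. None of the 67 genes passed in limma, beside 0.0258% of all probe sets. At an unadjusted p under 0.05 there were 6, where 14.4% of all probe sets were, and the smallest adjusted p was 0.229, that of Prdx3 (-0.29 ± 0.10). Txnip was at -0.51 ± 0.19 (adjusted p = 0.256), Hmox1 at -0.47 (0.429), Gsr at 0.43 ± 0.16 (0.268) and Srxn1 at -0.41 (0.514). Of the 67 confidence intervals of the interaction, 65 lay within a 2-fold and 57 within a 1.5-fold difference, and that of Hmox1, from -1.03 to 0.10, reached the lowest.

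Other genes of the same chemistry were described from a list of 90, of which 81 had a probe set. They take in NRF2 regulators, NADPH supply, cysteine supply and glutathione handling, NADPH oxidase subunits, and repair of oxidised protein. Left against right, 20 were higher and 10 lower in the left in sham rats (37.0%), and 19 and 15 in shunt rats (42%), shares near those of all probe sets given above. In sham rats the widest were Ucp2, a mitochondrial uncoupling protein (1.59 ± 0.11), Cybb, the catalytic NADPH oxidase subunit of phagocytes (-1.26 ± 0.16), Selenow, a small selenoprotein (1.12), the globin Cygb (1.09), Nfe2l1, a relative of Nfe2l2 (0.92), and Xdh, xanthine oxidoreductase (0.92). In shunt rats the widest were Ucp2 (1.38), Cybb (-1.37), Maob (-1.27), Nfe2l1 (0.91), Abcc1 (-0.81), Selenow (0.78) and Cygb (0.76), and all passed. Xdh was higher in the left of shunt rats as well, with group means of 9.48 against 9.09. Abcc1 was lower in the left of sham rats as well, at 7.18 against 7.85. Keap1, whose product holds the NRF2 protein down, was higher in the left by 0.26 in sham (limma adjusted p = 0.00787) and 0.19 in shunt (adjusted p = 0.0354). The Nfe2l2 transcript was lower on that side, and a link between them was not tested. The shunt call of Keap1 was lost without any of the right atrium shunt arrays or left atrium shunt replicates 2 or 3 (0.0505 to 0.111).

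With the shunt, 6 of these 81 rose in the right atrium (7.41%) and none fell. Of all probe sets 1.9% rose and 1.07% fell, and of all named genes 2.83% and 1.14%. The list was chosen with earlier results of these data known, so these shares were not a test of it. The 6 were Cybb (0.69 ± 0.16), Cygb (0.61 ± 0.11), Mafk, a partner of NRF2 on DNA (0.47 ± 0.07), Selenow (0.42), Idh1 (0.41), which supplies NADPH, and the phagocyte oxidase subunit Ncf4 (0.41). Cybb read 7.10, 7.08 and 6.87 in right sham and 7.68, 7.87 and 7.57 in right shunt, without overlap. In the left atrium none passed in limma, and 15 had an unadjusted p under 0.05 (18.5%), where 13.6% of all probe sets and 14.7% of all named genes did. Averaged over both atria 10 of the list rose (12.3%) and 1 fell (1.23%), beside 2.31% and 1.55% of all probe sets. Of all named genes 3.4% rose and 1.86% fell. The widest of the list were Cybb (0.64), Maff (0.46), Cygb (0.45), the metallothionein Mt2A (0.42), Lancl1 (-0.34) and Ncf4 (0.31). Keap1 was at 0.12 in the right and 0.06 in the left and did not pass. Cybb and Ncf4 are expressed by macrophages. Of 11 macrophage markers 3 rose in the right atrium, none in the left and 2 averaged over both. The part of macrophages in the changes of Cybb and Ncf4 was not tested.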

How the data were processed

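The deposited values are on the log2 scale, 1 per probe set and array, from 12 Affymetrix arrays hybridised with biotin-labelled cRNA. Per the submitters' processing notes the authors used RMA, whose version is not given in the sources used here. Its quantile step hides changes shared by most transcripts. Groups and replicate numbers came from the sample titles. Of 31099 probe sets, 57 controls were left out and 31042 tested. The annotation named 1 gene for 20826, several for 436 and none for 9780, and probe sets naming several genes were not members. In R 4.3.3, limma 3.58.1 (lmFit, contrasts.fit, eBayes) fitted the 4 group means to the values as deposited, with two-sided tests and Benjamini-Hochberg adjustment over the 31042 probe sets. The fit was tested on simulated data.

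The members and lists were chosen with earlier results of these data known. Every member past the threshold was named or counted, values by array were given for the 8 largest per comparison and for some of a fixed set of well-known genes that was named whatever its values. Gstm5 was given by array as a gene of the same row as Gstm7, a choice made after its values were seen. Alternatives were 10 other settings, 1 of them chosen after seeing the data, and leaving out each of the 12 arrays. The number of arrays limits the precision.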

Additional observations from a re-analysis of the deposited data

How the results depend on the processing

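The 10 alternatives were array weights, a filter on dim probe sets, a second quantile normalization, median subtraction, the trend and robust options of eBayes, a fit of only the groups compared (not possible for the averaged effect or the interaction), blocks by replicate number, blocks by replicate number within each operation (chosen after seeing the data, and run for left against right and the interaction), and a gene's brightest probe set or the mean of its probe sets with adjustment over genes. Of the left against right calls, 18 of 27 in sham and 15 of 30 in shunt were past the threshold in all of these and without any 1 array, and none of the 6 averaged shunt calls was. The single reversal was Txnl1 in shunt rats, at 0.02 with the mean of its probe sets. The counts past the threshold ran from 21 to 32 in sham and from 20 to 33 in shunt. For the shunt in the right atrium the count was 1 with array weights (Gstm1), 2 with only the groups compared (Gstm1 and Hmox1), and 0 to 2 without 1 array. In the left atrium it was 2 with trend and robust options (Gstk1 and Txn2), 1 without dim probe sets (Gstk1), and 0 to 3 without 1 array. For the averaged effect it was 10 with array weights and 0 to 11 without 1 array. The interaction gave 0 in all. Where the cause of such a change is not given by fewer arrays or fewer probe sets, the cause was not tested.

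With the replicate number as a block the counts were 0 in the right and left atrium, 4 for the averaged effect (Gstk1 and Nqo1 were not past the threshold), 26 in sham and 27 in shunt. Whether same-numbered arrays come from the same rats is not stated in the labels. Of 18 pairs of arrays with the same number, 3 had deviations correlated over 0.1, so the numbers were not used to pair. The 6 pairs of left and right arrays of the same operation were all positive (0.079 to 0.148 in sham, 0.095 to 0.143 in shunt), and the other 12 ran from -0.10 to 0.0726. With these 6 pairs as a replicate block within each operation, the counts were 26 in sham (Gpx1 and Txndc17 lost, Txnip gained), 30 in shunt (Prdx2 lost, Hmox1 gained at -0.34, adjusted p = 0.047) and 0 for the interaction.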

Other observations

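A probe set naming both Gsta5 and Gsta2, which is not counted among the members, was lower in the left atrium, at -0.44 in sham (limma adjusted p = 0.0275) and -0.47 in shunt (adjusted p = 0.0206).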
